A study of Zea mays with 6 samples.

Results

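A block of consecutive maize gene ID numbers, from Zm00001d024150 to Zm00001d024270, was followed through 6 kernel libraries. Its members were all genes of that range listed in the expression tables, 71 of the 33051 genes listed in all. The range was laid around 3 near neighbours, Zm00001d024208, Zm00001d024210 and Zm00001d024211, because their values were near 0 in every library labelled transgenic. The contrast between the groups therefore chose the block, and its differences are given below as a description, with no test of its own. The label places the block on chromosome 10. The tables give neither a chromosome nor a position, and they pair no nuclear ID with a gene name, so neither location nor function could be checked. A RefSeq gene table of another assembly (Zm-B73-REFERENCE-NAM-5.0) matched 0 of all 32852 nuclear IDs, the 71 members included. No sequences are shown.

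The study sequenced messenger RNA of whole kernels of the inbred line KN5585 at 10 days after pollination. One group of 3 libraries is labelled ZmSUS1 transgenic, and it stands for a single transgenic strain selected from plants transformed with ZmSUS1, a sucrose synthase gene. The other 3 libraries are labelled normal and stand for the non-transgenic negative control of that strain, in the same inbred line. Promoter, insertion site and copy number of the transgene, and how many kernels or plants went into a library, are not stated in the labels. Biological replication within each group is stated by the submitters.

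A maize kernel is mostly endosperm, a triploid storage tissue, around a small diploid embryo and inside the maternal pericarp. At this age the endosperm is in early filling, when sucrose from the mother plant begins to be turned into starch and storage protein. The Zm00001d identifiers belong to an annotation of the inbred line B73 whose gene numbers run in order along each chromosome. Nearby ID numbers are taken here, as background, to stand for genes that lie near each other.

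Values are FPKM, fragment numbers divided by the length of a gene and by the size of a library, so levels of different genes can be set side by side. Over all genes, FPKM summed to between 1360216 and 1378937 in the libraries labelled transgenic and between 1359751 and 1367563 in those labelled control. The gene taken here to be ZmSUS1 (Zm00001d047253), a pairing no label gives, stood at 155 ± 5.37 FPKM in the libraries labelled transgenic and at 215 ± 5.58 FPKM in those labelled control (SD, n = 3 each, limma adjusted p = 0.000759). If the pairing holds, this is against the direction of an overexpression. The groups are therefore named by their labels throughout. In bulk kernels, fewer cells of a type and less RNA per cell cannot be told apart.

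The 3 neighbours were expressed at moderate levels in the libraries labelled control and hardly at all in those labelled transgenic. Zm00001d024208 had 0.08, 0.28 and 0 FPKM in the libraries labelled transgenic, against 7.04, 7.44 and 8.51 FPKM in those labelled control. Zm00001d024210 had 0.20, 0 and 0.31 FPKM in the libraries labelled transgenic, against 8.66, 10.85 and 10.14 FPKM in those labelled control. Zm00001d024211 was listed at 0 in all 3 libraries labelled transgenic and at 10.31, 8.83 and 10.29 FPKM in those labelled control. All 3 transgenic-labelled values lay far below every control-labelled value in each of the 3 genes, and the 3 libraries of each group lay close to one another.

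The mean of Zm00001d024208 was 0.120 ± 0.144 FPKM in the libraries labelled transgenic and 7.66 ± 0.760 FPKM in those labelled control (SD, n = 3 each), a level 63.9-fold lower under the transgenic label. With such low values the fold rests on single libraries, and it was 192-fold without transgenic 2 and 42.6-fold without transgenic 3. For Zm00001d024210 the means were 0.170 ± 0.157 and 9.88 ± 1.12 FPKM in the libraries labelled transgenic and control (SD, n = 3 each), 58.1-fold lower in those labelled transgenic. Here the fold was 38.8 without transgenic 2 and 98.8 without transgenic 3. These leave-outs of the folds were chosen after seeing the data. No fold is given for Zm00001d024211, which is listed at 0 throughout one group, and its mean in the libraries labelled control was 9.81 ± 0.849 FPKM (SD, n = 3). The control levels of the 3 genes thus lay close together, and none of the 3 stood out as more abundant. Summed, they made up 0.28, 0.28 and 0.31 FPKM in the libraries labelled transgenic and 26.0, 27.1 and 28.9 FPKM in those labelled control, so the sum was at 1.06% of its control level.

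After adding 1 FPKM and taking log2, which makes changes of low genes look smaller than they are, the differences (transgenic minus control) were -2.96 for Zm00001d024208, -3.22 for Zm00001d024210 and -3.43 for Zm00001d024211. Their standard errors were 0.140, 0.144 and 0.115 in the limma fit over all genes. The size depends on the added constant: with 0.1 in place of 1 FPKM the differences were -5.35, -5.43 and -6.63. These values chose the block and are no evidence beyond the description.

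**Figure D1:**
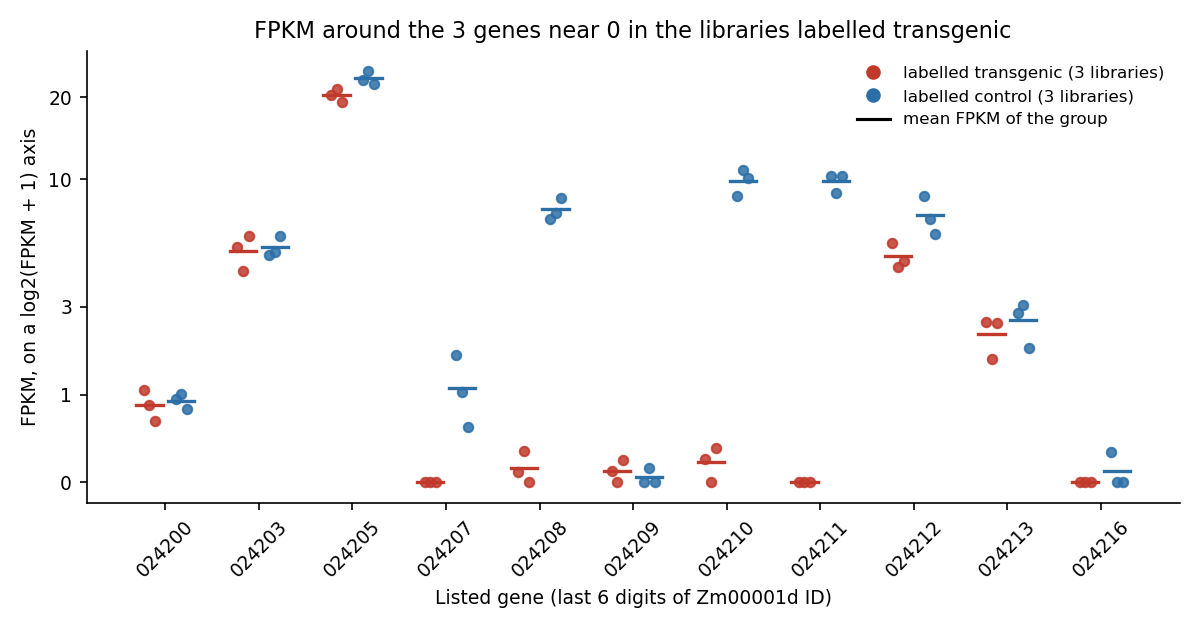
FPKM on a log2(FPKM + 1) axis for the 11 listed genes from Zm00001d024200 to Zm00001d024216, with the 3 libraries labelled transgenic at the left of each gene and the 3 labelled control at the right; dots are libraries and bars are group means. Zm00001d024208, Zm00001d024210 and Zm00001d024211 sit between 0 and 0.31 FPKM in the libraries labelled transgenic and between 7.04 and 10.85 FPKM in those labelled control, while Zm00001d024205 and Zm00001d024212 on either side keep most of their level.

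Between and beside these 3 genes lay members that show how far the near-zero stretch could be followed. Zm00001d024207, the ID number just below, was listed at 0 in all 3 libraries labelled transgenic and had 1.73, 1.04 and 0.55 FPKM in those labelled control. Its groups did not overlap, but its mean over the 6 libraries was 0.553 FPKM, under the 1 FPKM required of a gene to be tested. Zm00001d024209, which lies inside the stretch, was close to 0 in both groups, with 0.09, 0 and 0.19 FPKM in the libraries labelled transgenic and 0, 0.12 and 0 FPKM in those labelled control. It had no level in the libraries labelled control that could have been lost, and so it neither extends nor breaks the stretch.

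The next expressed members on both sides kept most of their level. Zm00001d024205, below the stretch, had 20.34, 21.46 and 19.25 FPKM in the libraries labelled transgenic, against 23.21, 24.84 and 22.33 FPKM in those labelled control. That is 86.7% of the control level, and the difference of -0.20 on the log2(FPKM + 1) scale did not pass the threshold, although the groups did not overlap. Zm00001d024203 had 5.41, 4.32 and 6 FPKM in the libraries labelled transgenic, against 5.03, 5.20 and 6.03 FPKM in those labelled control, and its groups overlapped.

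Above the stretch, Zm00001d024212 had 5.66, 4.49 and 4.75 FPKM in the libraries labelled transgenic, against 8.60, 7.02 and 6.15 FPKM in those labelled control. It stood at 68.4% of its control level without overlap, between the near-zero genes and the little-changed members further on. Zm00001d024213 had 2.54, 1.65 and 2.51 FPKM in the libraries labelled transgenic, against 2.82, 3.07 and 1.90 FPKM in those labelled control, and its groups overlapped. Zm00001d024216 was listed at 0 in every library except control 1, at 0.27 FPKM, and Zm00001d024200, with 1.07, 0.84 and 0.62 FPKM in the libraries labelled transgenic and 0.93, 1.01 and 0.78 FPKM in those labelled control, also overlapped. The loss to near 0 thus started at Zm00001d024207 or Zm00001d024208 and ended at Zm00001d024211, within 5 consecutive ID numbers.

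Near-zero levels of this kind were rare in the tables. A gene was counted as near 0 in a group where none of its libraries exceeded 0.5 FPKM while the other group averaged at least 5 FPKM. In the libraries labelled transgenic 9 of the 33051 listed genes (0.0272%) met this, and 3 of the 9 were these neighbours. In those labelled control 2 genes (0.00605%) met it, and both lay outside the block. With a limit of 2 FPKM for the other group, 31 genes (0.0938%) were near 0 in the libraries labelled transgenic, and the block still held 3. The rule for the block used this property, so nothing is read from the shares.

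Of the 71 members, 31 had a mean of at least 1 FPKM and were tested, and 40 were below it. Calls were made at a limma adjusted p under 0.05 over all 20514 genes tested. In the block 7 of 31 tested members (22.6%) were called, against a background of 19.0% over all genes tested. All 7 were lower in the libraries labelled transgenic (background 16.2%), and 0 were higher (background 2.88%). A call with a log2 difference of -1 or below was made for 3 of the 31 tested members (9.68%), the near-zero neighbours themselves, against 1.36% of all genes tested. That share returns the choice of the block, since these 3 genes chose it and reached a mean of 1 FPKM only through the libraries labelled control. Without them, 4 of 28 tested members (14.3%) were called and 0 had a log2 difference of 1 or more in either direction. These were 0 of 12 below and 4 of 16 above the stretch.

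The groups did not overlap in 12 of the 31 tested members (38.7%), against 38.9% over all genes tested. In 11 of these the libraries labelled transgenic were the lower (background 31.6%), and in 1, Zm00001d024171, they were the higher (background 7.36%). That gene had 8.84, 9.20 and 10.85 FPKM in the libraries labelled transgenic, against 8.33, 8.52 and 8.68 FPKM in those labelled control. The 11 lower members include the 3 genes that chose the block. Without those 3, the groups did not overlap in 9 of 28 tested members (32.1%), 8 lower and 1 higher.

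**Figure D2:**
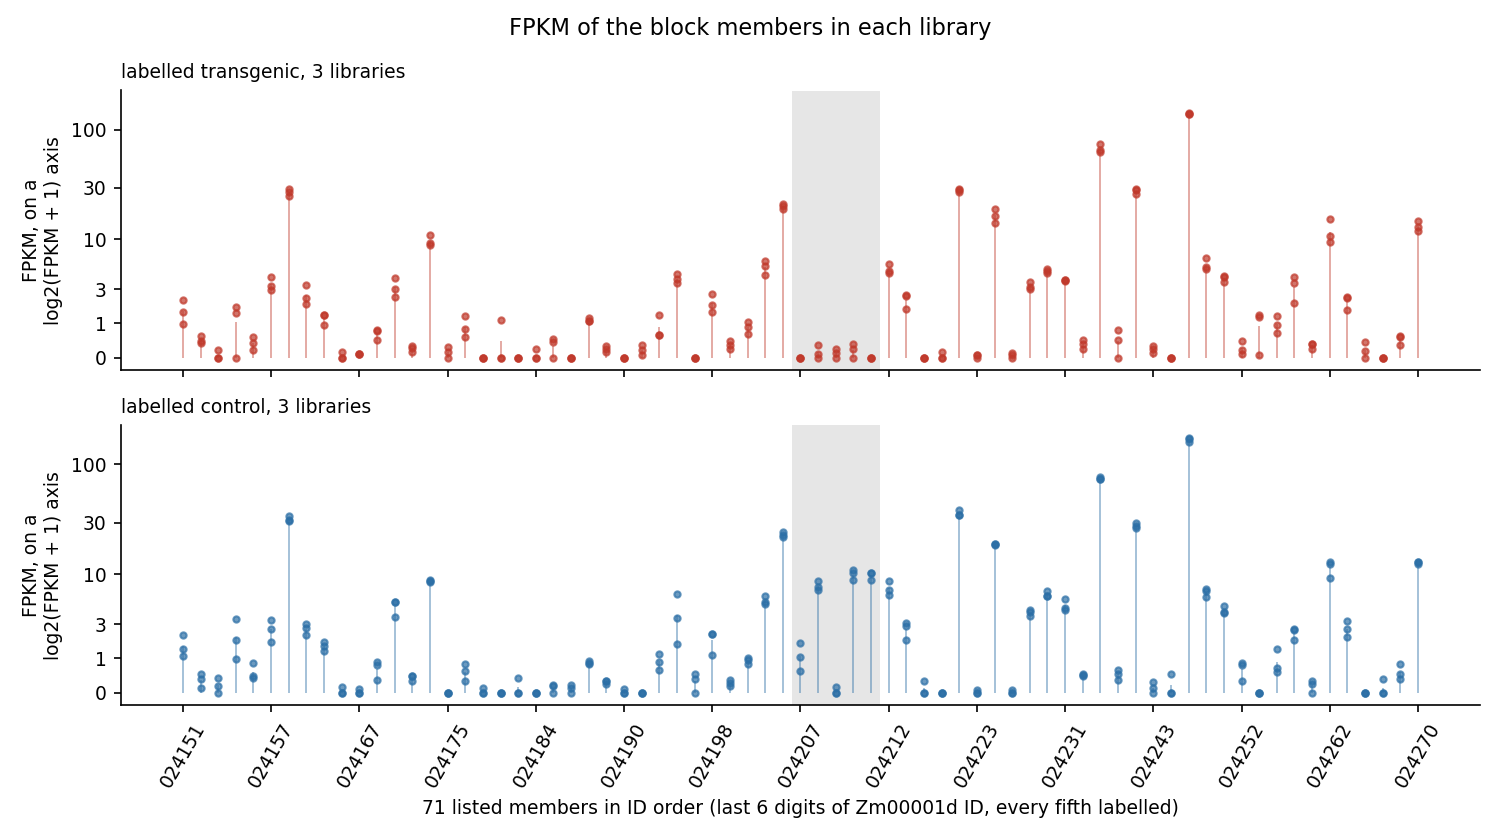
FPKM of all 71 listed members in ID order on a log2(FPKM + 1) axis, with the 3 libraries labelled transgenic in the upper panel and the 3 labelled control in the lower panel; dots are libraries, lines reach to the group mean, and the grey band covers Zm00001d024207 to Zm00001d024211. The profile of the 2 panels is alike outside the band, where the most abundant member, Zm00001d024245, stands at 138 to 140 FPKM and at 159 to 171 FPKM.

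In ID order, from Zm00001d024151 to Zm00001d024205, there were 35 listed members, of which 12 were tested and 0 called, against 19.0% called over all genes tested. Their log2 differences ran from -0.63 (Zm00001d024154) to 0.32 (Zm00001d024157), with a median of -0.05. The 2 extremes were low genes whose groups overlapped. Zm00001d024154 had 1.76, 1.46 and 0 FPKM in the libraries labelled transgenic, against 1.87, 3.43 and 0.96 FPKM in those labelled control. Zm00001d024157 had 3.25, 2.90 and 4.13 FPKM in the libraries labelled transgenic, against 3.33, 2.65 and 1.76 FPKM in those labelled control. Of these 12, 8 had a lower and 4 a higher mean on the log2 scale in the libraries labelled transgenic, beside 71.2% with a lower mean over all genes tested.

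The most abundant member below the stretch was Zm00001d024158. It had 29.45, 25.33 and 27.47 FPKM in the libraries labelled transgenic, against 31.47, 34.73 and 31.64 FPKM in those labelled control, 84.1% of the control level. Its groups did not overlap, yet it did not pass the threshold. Zm00001d024169 had 4.05, 2.44 and 3 FPKM in the libraries labelled transgenic, against 5.22, 3.62 and 5.28 FPKM in those labelled control. Its groups overlapped. It was not called (log2 difference -0.46), and it was called only when the replicate number entered the fit as a block.

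From Zm00001d024212 to Zm00001d024270 there were 31 listed members, of which 16 were tested and 4 called, all lower in the libraries labelled transgenic, against 16.2% called lower over all genes tested. Of the 16, 13 had a lower and 3 a higher mean on the log2 scale, against 71.2% with a lower mean over all genes tested. Their median log2 difference was -0.20. The sides above and below the stretch were not tested against each other. All genes tested had a median of -0.13, and with the typical gene levelled between libraries (median-ratio rescaling) the median of the 16 was -0.07 and 0 were called. The largest rise was that of Zm00001d024257, at 0.31 on the log2 scale, which was not called.

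The called members above the stretch, beside Zm00001d024212, were Zm00001d024222, Zm00001d024230 and Zm00001d024245. Zm00001d024222 had 29.32, 27.29 and 29.01 FPKM in the libraries labelled transgenic, against 35.24, 35.23 and 39.59 FPKM in those labelled control, 77.8% of the control level. Zm00001d024230 had 4.78, 5.06 and 4.57 FPKM in the libraries labelled transgenic, against 6.76, 6.07 and 6 FPKM in those labelled control, 76.5% of the control level. Zm00001d024245, the most abundant member and the last called in ID order, had 138.00, 139.83 and 137.68 FPKM in the libraries labelled transgenic, against 159.20, 171.25 and 167.37 FPKM in those labelled control, 83.5% of the control level. In all 3 genes the groups stood apart, but by a margin small beside that of the near-zero neighbours.

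Their log2 differences were -0.46 (Zm00001d024212), -0.35 (Zm00001d024222), -0.33 (Zm00001d024230) and -0.26 (Zm00001d024245), with standard errors of 0.133, 0.0699, 0.0931 and 0.0495. None of these 4 calls was left when FPKM was rescaled by the median ratio. The block then held 3 called members (9.68%), the near-zero neighbours, against a background of 13.6%. Their log2 differences under that rescaling were -2.88 for Zm00001d024208, -3.14 for Zm00001d024210 and -3.36 for Zm00001d024211. With the replicate number as a block, Zm00001d024230 was also not called. In each fit with a single library omitted, Zm00001d024230 was not called (log2 difference -0.36 to -0.28). Neither was Zm00001d024212 without control 1, control 2, transgenic 2 or transgenic 3, at log2 differences of -0.35, -0.48, -0.41 and -0.44.

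Other abundant members above the stretch differed little. Zm00001d024239 had 74.72, 65.21 and 63.46 FPKM in the libraries labelled transgenic, against 76.81, 74.59 and 73.69 FPKM in those labelled control, and the groups overlapped. Zm00001d024242 had 28.69, 26.30 and 29.53 FPKM in the libraries labelled transgenic, against 29.71, 28.15 and 27.10 FPKM in those labelled control, 99.5% of the control level. Zm00001d024225 had 14.25, 16.65 and 19.41 FPKM in the libraries labelled transgenic, against 18.74, 19.32 and 19.05 FPKM in those labelled control, with overlap. Called members formed no single unbroken run. From the first called member, Zm00001d024208, to the last, Zm00001d024245, 6 of 13 tested members were not called. The longest run of neighbouring tested members called lower was 4, from Zm00001d024208 to Zm00001d024212.

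The ends of the block did not coincide with any change. The first listed member, Zm00001d024151, had 1.5, 0.96 and 2.20 FPKM in the libraries labelled transgenic, against 1.39, 1.11 and 2.23 FPKM in those labelled control. The last, Zm00001d024270, had 12.04, 13.17 and 14.95 FPKM in the libraries labelled transgenic, against 12.98, 12.38 and 12.96 FPKM in those labelled control. Just outside, Zm00001d024143 had 0, 0.30 and 0.60 FPKM in the libraries labelled transgenic and was listed at 0 in those labelled control. Zm00001d024272 had 0.33, 0.68 and 0.89 FPKM in the libraries labelled transgenic, against 0.43, 0.58 and 0.53 FPKM in those labelled control. All 4 were at like levels in both groups or close to 0.

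**Figure D3:**
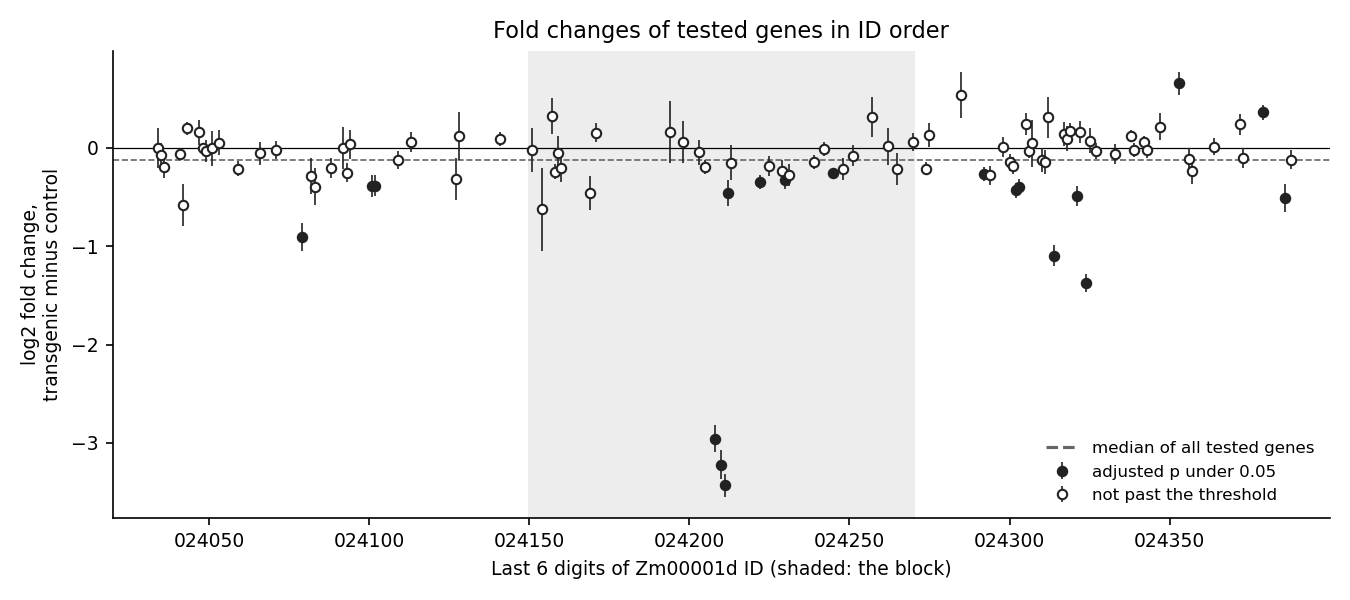
Log2 difference (transgenic minus control, log2(FPKM + 1) scale, bars 1 standard error from limma) of each tested gene against its ID number in the block (shaded) and in the adjoining blocks of equal length on each side; filled dots passed an adjusted p of 0.05 and the dashed line is the median of all tested genes, -0.13. The 3 near-zero neighbours lie between -2.96 and -3.43, and no other gene in the window lies below -1.37.

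The 40 untested members were low in both groups. Their means over the 6 libraries reached at most 0.983 FPKM, and the highest single value was 1.73 FPKM, that of Zm00001d024207 in control 1. Of these members 9 were above 0 in 1 library alone and 14 in all 6. In the libraries labelled transgenic 9 were listed at 0 throughout, and in those labelled control 7 were. The groups did not overlap in 1 of the 40 (2.5%) that was lower, Zm00001d024207, and in 3 (7.5%) that were higher in the libraries labelled transgenic, against 9.23% lower and 3.65% higher over the 12537 untested genes of the tables. The 3 were Zm00001d024187, Zm00001d024192 and Zm00001d024253, named after their values were seen. Zm00001d024187 had 1.09, 1.23 and 1.09 FPKM in the libraries labelled transgenic, against 0.77, 0.90 and 0.82 FPKM in those labelled control. Zm00001d024253 had 1.26, 0.06 and 1.36 FPKM in the libraries labelled transgenic and was listed at 0 in all 3 labelled control. At such levels a value may rest on few fragments, and its precision is unknown, since no counts are given.

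Library 3 of each group was looked at separately within the block, because over all genes tested the deviations of the libraries numbered 3 from their group means correlated at 0.325 between the groups. Among the 28 tested members other than the near-zero neighbours, library 3 differed from the mean of libraries 1 and 2 by at least 0.5 on the log2 scale in 4 members in the group labelled transgenic and in 5 in the group labelled control, and in 2 members in both. Zm00001d024194 varied most in the group labelled control, with 3.49, 3.96 and 4.42 FPKM in the libraries labelled transgenic and 3.48, 1.66 and 6.27 FPKM in those labelled control. Without library 3 of both groups the block held 5 called members, the near-zero neighbours with Zm00001d024222 and Zm00001d024245, which is 16.1% of its tested members against 14.1% of all genes in that fit. The median coefficient of variation of these 28 members was 12.9% in the group labelled transgenic and 12.1% in the group labelled control, against 9.88% and 9.56% over all tested genes outside the block, and the block's genes were also lower in level.

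The block was then set beside other stretches of the same length. The ID numbers were divided into adjoining blocks of that same length counted out from Zm00001d024150, and 425 other blocks held at least 20 tested genes. The share of called genes in them ranged from 2.33% to 40% with a median of 18.8%, and 112 of the 425 (26.4%) had a higher share than this block's 22.6%. With the replicate number as a block in the fit, 43.5% had a higher share, and with median-ratio rescaling 79.8%. With the filter raised to 5 FPKM, 5.04% of 377 other blocks had a higher share. The block itself then held 15 tested genes, under the 20 required of the others. The place of the block by its share of all changed genes therefore moved with the setting. By the share called lower, 14.6% of the other blocks stood higher, and the median log2 difference of the block, -0.20, was below that of 401 of the 425. All these places include the 3 genes that chose the block, so nothing is read from them. Without those genes 4 of 28 tested members (14.3%) were called, all lower, and the median was -0.17. With median-ratio rescaling the median of the block was -0.054.

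For strong changes the place of the block was different. A call with an absolute log2 difference of at least 1 was made for 9.68% of its tested genes (background 1.75%), and 3 of the 425 other blocks had a higher share, the largest being 11.4%. Those 3 blocks reached their share with 4 or 5 genes of which none was near 0 in either group. No other compared block held more than 1 gene near 0 in a group by the limit of 5 FPKM. With the limit of 2 FPKM, 1 other block also held 3. Runs of neighbouring tested genes called lower by at least 1 on the log2 scale numbered 16 over the whole table, 13 of 2 genes and 3 of 3 genes. Every member was at -2 or below in 1 of the runs of 3 genes, that from Zm00001d024208 to Zm00001d024211, and in 2 of the runs of 2 genes. The run of Zm00001d048949 and Zm00001d048950, at log2 differences of -3.69 and -4.05, was stronger. The block was chosen for these genes, so these places describe it and test nothing.

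**Figure D4:**
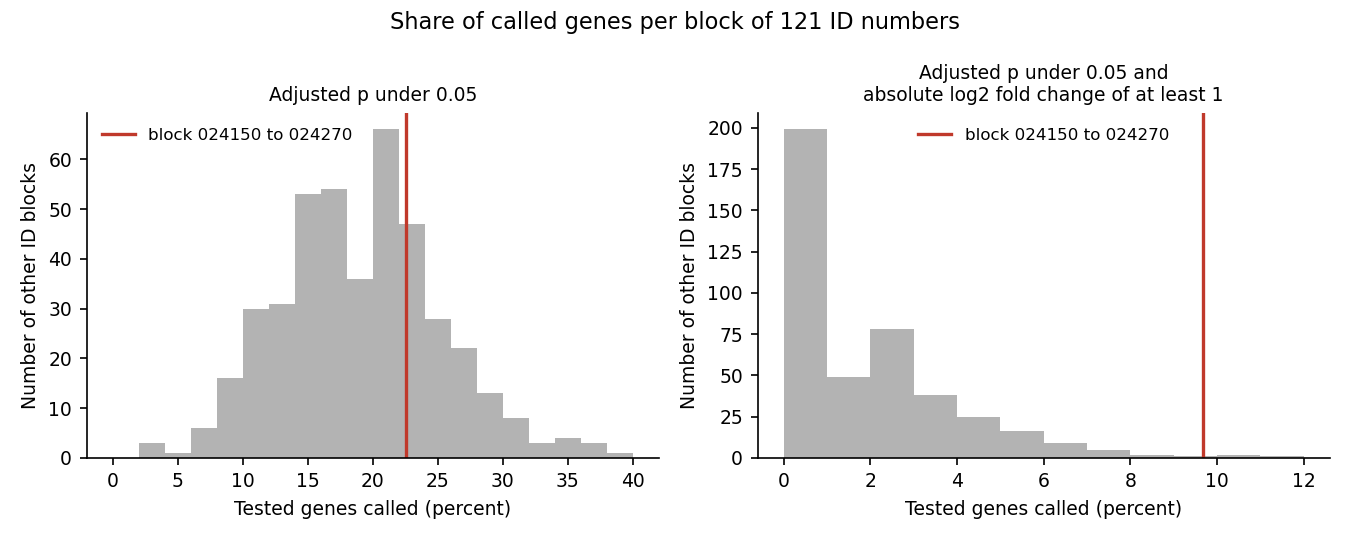
Number of other ID blocks of the same length (425 blocks with at least 20 tested genes) by their percentage of tested genes called, at an adjusted p under 0.05 (left) and with an absolute log2 difference of at least 1 in addition (right); the red line marks the block from Zm00001d024150 to Zm00001d024270. It stands at 22.6%, where 112 of the 425 others lie higher in the left panel, and at 9.68%, at the right end of the right panel.

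The block was also sparse. It held 71 listed genes, with 50 ID numbers not listed, fewer than 309 of the 425 other blocks, and 31 tested genes, fewer than 399 of them. The median level of its tested genes was 4.91 FPKM, below that of 388 of the other blocks, whose median was 7.56 FPKM. Few tested genes make its shares coarse, since a single gene more or less moves them visibly.

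The adjoining blocks held no gene near 0 in a group. From Zm00001d024029 to Zm00001d024149, 3 of 28 tested genes (10.7%) were called, all lower in the libraries labelled transgenic, and none reached a log2 difference of -1. From Zm00001d024271 to Zm00001d024391, 9 of 40 (22.5%) were called, 7 lower and 2 higher. In that block Zm00001d024314 stood at 41.8% and Zm00001d024324 at 35.3% of the control level. Zm00001d024324 had 6.79, 6.47 and 5.34 FPKM in the libraries labelled transgenic, against 17.47, 17.85 and 17.42 FPKM in those labelled control. The nearest tested neighbours of these 2 genes were not called, so strong falls lay scattered above the block and formed no further run. In running stretches of 15 tested genes from one adjoining block to the other, the number called lay between 0 and 7. It reached 7 in the stretches that held all the called members of the block, and 0 just below them, between Zm00001d024109 and Zm00001d024205.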

How the data were processed

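Messenger RNA libraries of whole kernels were compared, 3 labelled transgenic and 3 labelled control, grouped and numbered by their titles. Per the file headers, the authors deposited 1 table of FPKM values per library, given to 2 decimals. Every listed gene is above 0 in at least 1 library. The sources used here do not give the aligner, counter, build or annotation; the submitters' processing notes name DESeq2 with no role. Total fragment counts are not given, so no counting intervals were computed. Low genes (1 to 3 FPKM), in which single fragments show as steps, gave relative depths of 0.998 to 1.02 against control 1, searching ratios from 0.8 to 1.25 alone.

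From these values log2(FPKM + 1) was fitted over 20514 genes, those averaging 1 FPKM or more, in limma 3.58.1 (R 4.3.3; moderated variance with a mean trend, no covariate, 2-sided, Benjamini-Hochberg adjustment, threshold 0.05), after being tested on simulated data. Members and rules were chosen with earlier results of these data known. Members named were the 3 near-zero genes, called members, the 5 most abundant, all listed from Zm00001d024200 to Zm00001d024220 and others where a sentence turns on them. No tested member had values identical to those of another gene in all 6 libraries. Whether members share reads with near-identical copies is unknown.

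Across genes, the deviations of libraries of the same number from their group means correlated at 0.135, 0.122 and 0.325. Libraries of unlike number correlated at 0.105 and 0.0847. Where a library of the pair at 0.325 took part, unlike numbers correlated at -0.204 to -0.176. Only the pair at 0.325 thus stood clearly apart, and the values hardly set the other pairs off from unlike numbers. The replicate numbers were nevertheless taken as pairs. No label states this pairing. It entered an alternative fit as a block. The other alternatives changed the added constant, the filter, the scaling, the threshold, the comparison blocks and the libraries.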

Additional observations from a re-analysis of the deposited data

How the results depend on the processing

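The 3 near-zero neighbours stayed lower and called wherever they were tested, under all scalings, added constants, the replicate block and every leave-out, and the block held 3 members near 0 in each setting where that was counted. The block was chosen for these values in the same libraries, so this outcome was largely fixed beforehand and tests nothing. At a mean of at least 5 FPKM Zm00001d024208 and Zm00001d024211 were no longer tested. Under the 3 alternative scalings no other call was left. These were median-ratio rescaling, quantile normalization and a sum that left out the 20 most abundant genes. In each, 3 members (9.68%, against 13.6% to 13.7% of all genes) were called, with a median log2 difference of -0.054, -0.040 and -0.037 in turn. Other blocks with a higher share were then 79.8%, 80.0% and 78.1%. Requiring a log2 difference of at least 1 left 3 (9.68%, against 1.75%), with 0.706% of other blocks higher. With no filter 6 of 71 (8.45%) were called against 10.1% of all genes, Zm00001d024207 among them. The median was then -0.049, and 65.6% of blocks were higher. At a mean of at least 5 FPKM 6 of 15 (40%) were called against 26.2%, Zm00001d024158 among them. Of 377 other blocks 5.04% were then higher, though the block's 15 tested genes were under the 20 required of those. The replicate block left 7 calls (22.6% against 21.8% of all genes), exchanging Zm00001d024230 (log2 difference -0.33) for Zm00001d024169 (-0.46), with 43.5% of blocks higher. Without any 1 library there were 5 to 6 calls, 16.1% to 19.4% against 11.4% to 16.2% of all genes, with 14.8% to 34.6% of blocks higher. Zm00001d024230 was then never called (log2 difference -0.36 to -0.28). Zm00001d024212 was not called without control 1 (-0.35), control 2 (-0.48), transgenic 2 (-0.41) or transgenic 3 (-0.44). Uncalled members near no change turned round. Zm00001d024203 was at 0.079, 0.091 and 0.093 with the 3 scalings and from -0.13 to 0.065 without single libraries, above 0 without control 3 and without transgenic 2. Zm00001d024242 was at 0.14, 0.15 and 0.15 with the 3 scalings and from -0.041 to 0.039 without single libraries, above 0 without control 1 and without transgenic 2. Zm00001d024239 was at 0.016 with the sum that left out the 20 most abundant genes. The causes were not tested. The depth behind the 40 members under the filter is unknown.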

Other observations

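The nearest gene outside the block that was near 0 in a group was Zm00001d023811, 397 ID numbers below Zm00001d024208. It averaged 0.0467 FPKM in the libraries labelled transgenic and 6.81 FPKM in those labelled control. A run of 3 neighbouring tested genes called lower, from Zm00001d023769 to Zm00001d023779, lay close to it, with log2 differences of -1.37 to -1.90. The block of ID numbers that holds this run had 4 of 39 tested genes (10.3%) called with an absolute log2 difference of at least 1. Over all genes tested the share was 1.75%, and that block was looked at because it holds the run. Between that block and the one around Zm00001d024208, 3 blocks had 0 to 2 such genes each. The choice of these genes followed their values, and whether they belong together was not tested.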
